A study of Danio rerio with 14 samples.

Results

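The genes most specific to mylz2+ muscle cells were taken from bulk RNA-Seq of sorted cranial zebrafish cells. Members were chosen by the counts of the 8 wild-type/heterozygous libraries, scaled to a total of 1000000 in each library (CPM), over 32520 genes. Genes were kept with a mean of at least 20 CPM in the mylz2+ wild-type/heterozygous libraries and a log2 ratio of at least 3 to the sox10+ wild-type/heterozygous libraries, after adding 1 CPM to both means. Of 432 genes past both limits, the 200 with the highest ratio were taken, after 8 identifiers had been left out by the rule, 7 of which also passed the limits. The ratio to sox10+ cells in the wild-type/heterozygous libraries is therefore a description of the list and not a finding.

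Larvae carried the psmb1 hi2939 allele, a retroviral insertion in the first intron of psmb1, which encodes a β subunit of the 20S proteasome core. Heads were dissected at 72 hpf from homozygous mutants (psmb1-/-) or from wild-type and heterozygous larvae pooled (psmb1+/+;+/-), with 20 to 25 heads in a sample. Muscle cells were sorted by mCherry driven by the mylz2 promoter, 1500 cells in a sample, and neural crest and cartilage cells by Kaede driven by the sox10 promoter, 7000 cells in a sample. Each cell type had 4 wild-type/heterozygous (WH) and 3 mutant (M) libraries, so cell type cannot be told apart from reporter line and number of cells. One mylz2+ mutant sample has the replicate number 3 in its title and 2 in its description, and it is called replicate 3 here.

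A muscle fibre is packed with sarcomeres, in which thick filaments of myosin slide along thin filaments of actin that are anchored at Z-discs. Contraction starts when acetylcholine receptors at the neuromuscular junction depolarise the membrane, calcium leaves the sarcoplasmic reticulum and troponin frees the thin filament for myosin. Myosin folds with the help of the chaperones Unc45b and Hsp90 and the methyltransferase Smyd1, and damaged filament proteins are removed by ubiquitin ligases and the proteasome.

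Of the 200 genes, 188 had a symbol and 12 had only an Ensembl identifier. The symbol table writes 102 of them in capitals, as human genes are written, and gives 26 genes only 12 symbols, so close copies are told apart by identifier. Lists of sarcomere, calcium handling, synapse, metabolism and fibre assembly genes held 119 of the 200, and 81 stood on none of them. The 10 genes with the highest ratio were MYH6 (ENSDARG00000079564), tcap, tnnc2.1, myl10, smyhc2, TNNI2 (ENSDARG00000005841), hspa1b, TNNC1, hspb9l and myhz2, 8 of which encode sarcomere proteins and 2 of which, hspa1b and hspb9l, encode heat shock proteins. In the WH libraries the log2 ratio ran from 5.62 to 10.39, with a median of 6.84. At the end of the list, NEXN (5.623) and tns2b (5.620) were inside and sh3bgr (5.619) and SYNPO2L (5.616) were outside, and the parvalbumin gene pvalb1 followed at 5.603. Among the 82 genes whose symbol was found in the RefSeq annotation (GRCz12tu, used for gene order only), 5 pairs were next to each other on a chromosome, namely pvalb3 with pvalb2, smyhc1 with smyhc2, and the chain of myosin heavy chain genes myhz2, myhc4, myha and myhz1.3.

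The label of the cells matched the markers. The sum of 17 fast skeletal muscle identifiers was 118300 to 132100 CPM in the mylz2+ WH libraries. It was 239.1 to 1617 CPM in the sox10+ WH libraries. Of the 17, 10 are among the mylz2-specific genes, which were chosen for a high ratio in these same libraries. The sum is therefore not independent of that choice. MYL11 (ENSDARG00000053254) was at 38820 to 47610 CPM in mylz2+ WH and 85.96 to 373.2 CPM in sox10+ WH libraries. It is missing from the chosen genes only because the rule leaves it out by name, since these values pass both limits. MYL11 is also the symbol of the mylz2 reporter gene, so it is no independent check of the sort. SOX10, the gene of the other reporter and not among the chosen genes, was at 0.288 to 5.66 CPM in mylz2+ WH and 1131 to 1244 CPM in sox10+ WH libraries. Library totals were 54824619 to 103563447 counts, so that 3 counts were worth 0.029 to 0.0547 CPM. PSMB1 itself was at 114.6 to 135.9 CPM in mylz2+ WH and 86.7 to 102.0 CPM in mylz2+ mutant libraries (log2 fold change -0.85, SE 0.13, adjusted p = 0.00137, edgeR quasi-likelihood test). Its ranges are in plain CPM and its fold changes on the TMM scale described below, and in muscle the plain values fell less. In sox10+ cells the PSMB1 ranges overlapped, at 53.0 to 88.1 and 74.2 to 98.4 CPM (log2 fold change 0.04, adjusted p = 0.958, edgeR), so PSMB1 counts did not separate the labelled genotypes there.

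The 200 genes took a smaller share of all counts in mutant muscle. They made up 36.8%, 36.0%, 35.3% and 35.7% of the counts in mylz2+ WH replicates 1 to 4, and 26.1%, 23.7% and 28.6% in mutant replicates 1, 3 and 4. The mean share was 36.0% ± 0.629 (SD, n = 4) in WH and 26.1% ± 2.45 (SD, n = 3) in mutants, and no mutant library reached the lowest WH library. A smaller part of true muscle cells in the sort and less of these RNAs in each cell cannot be told apart in such bulk samples. The 10 genes with the most counts, led by the actin gene actc1b, took 19.9% to 21.4% of a WH library and 12.1% to 16.6% of a mutant library. The other 190 genes took 15.2% to 15.8% and 11.6% to 12.4%, so the lower share was not that of a few abundant genes alone. By list, the thin filament genes took 15.5% ± 0.532 of WH and 11.2% ± 1.69 of mutant counts and the thick filament genes 8.71% ± 0.555 and 5.19% ± 0.745 (SD, n = 4 and 3). The summed share of the genes of fibre assembly and protein turnover was 1.03% ± 0.0681 in WH and 2.29% ± 0.197 in mutants, and most of this difference was that of the chaperone gene hsp90aa1.1, with 0.567% ± 0.0624 and 1.74% ± 0.191. The other 14 genes of that list took 0.462% ± 0.0243 and 0.554% ± 0.0188 (SD, n = 4 and 3).

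**Figure D1:**
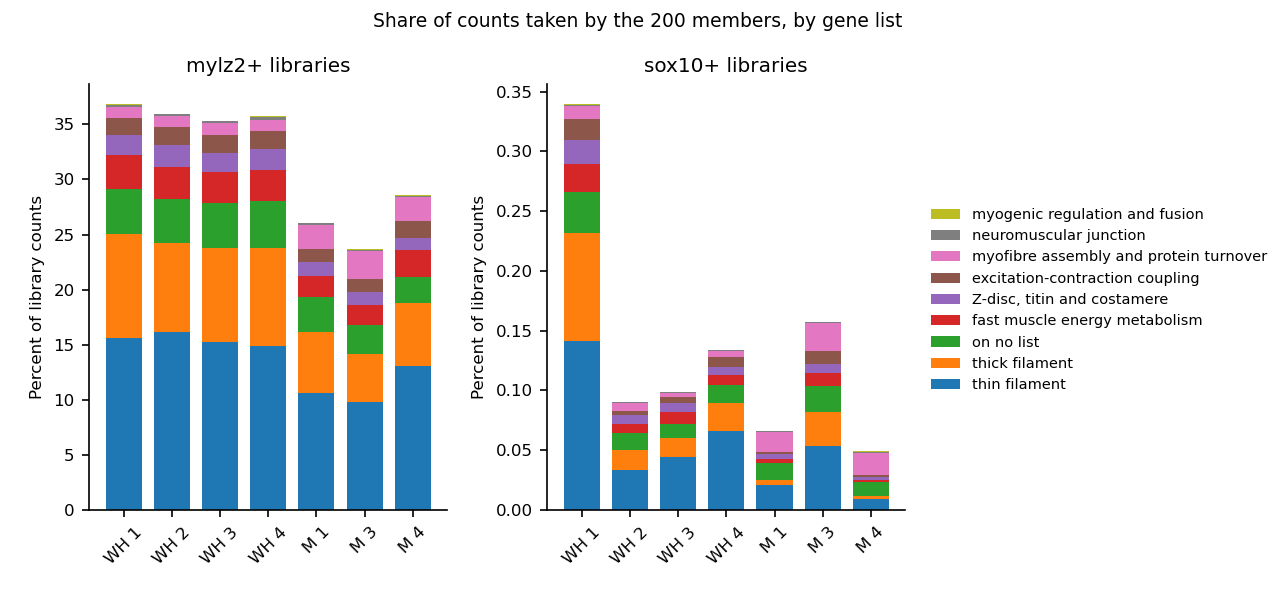
Percent of library counts taken by the 200 mylz2-specific genes in each mylz2+ (left) and sox10+ (right) library, with the gene lists stacked and each axis on its own scale from 0. The 3 mylz2+ mutant libraries (M) reach 23.7% to 28.6% and the 4 WH libraries 35.3% to 36.8%, while no sox10+ library passes 0.339%.

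The scaling of the libraries moved the fold changes in muscle. Over the 20413 genes tested, the median log2 fold change was 0.41 with library totals alone and 0.01 with TMM scaling, which assumes that most genes do not change, a shift of 0.40. Fold changes are given with TMM scaling unless library totals are named, and normalised CPM means CPM on that scale. Over all genes, 2385 were called lower and 2202 higher with TMM, and 1122 lower and 4352 higher with library totals.

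In mylz2+ cells, 181 of the 200 genes were lower in psmb1 mutants at an adjusted p under 0.05 (edgeR quasi-likelihood test, Benjamini-Hochberg over all genes), beside 11.7% of all genes tested. Only 3 of the 200 were higher, hsp90aa1.1, hspa1b and UNC45B, beside 10.8% of all genes, and 16 did not pass the test. In either direction, 22.5% of all genes were called. All 200 passed the filter on low counts. The median log2 fold change of the 200 was -1.12 (quartiles -1.57 and -0.85, range -3.01 to 1.22), and 122 of them were at -1 or lower, beside 13.6% of all genes. On library totals, 151 were called lower and 10 higher, and the median was -0.72. The 30 genes that lost the call there included actc1b, myhz1.1, DES, atp2a1l, CHRNB1, RAPSN, GAPDH, trim63a, KLHL41, USP13, MLF1 and CDH15. The same WH libraries that chose the list enter this contrast, and a gene that was high in them by chance would look lower in mutants. Normalised CPM of the genotypes did not overlap for 187 of the genes, lower in mutants for 184 (16.5% of all genes) and higher for 3 (17.7% of all genes). Plain CPM did not overlap for 162, with 151 lower (8.01% of all genes) and 11 higher (29.9% of all genes).

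**Figure D2:**
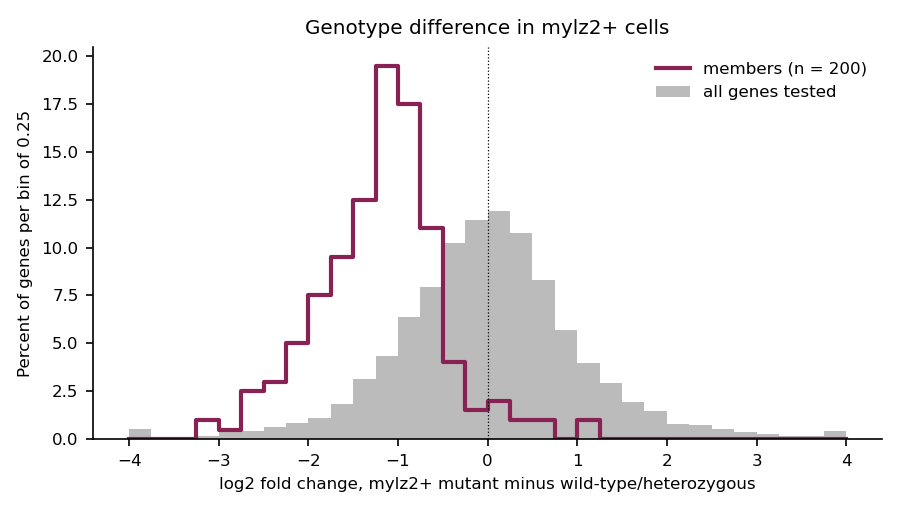
Distribution of the log2 fold change between mylz2+ mutant and WH libraries for all 20413 genes tested (grey bars) and for the 200 mylz2-specific genes (line), as percent of genes in bins of 0.25, with values past 4 in either direction drawn in the outermost bin. The line peaks near -1 and its median is -1.12, against 0.01 for all genes.

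To describe the difference in libraries that had not chosen the list, the rule was run on 3 mylz2+ WH libraries and the mutants were set against the fourth. Between 197 and 198 of the 200 genes were chosen again. The median log2 CPM ratio of the mutant mean to the held-out library, after adding 1 CPM, was -0.70, -0.76, -0.62 and -0.83 for WH replicates 1 to 4. Mutants were below the held-out library for 184, 178, 179 and 185 of 200 genes. These values are on plain CPM and not on the TMM scale. In the fit of all mylz2+ libraries on library totals, 6486 of 20413 genes were below 0, with a median log2 fold change of 0.41. Against the libraries that chose the genes, the medians were -0.73, -0.74, -0.76 and -0.68. With a single WH library, assumed to vary like the mutants, edgeR called 109, 139, 86 and 142 of the genes lower, beside 2.99%, 5.26%, 1.95% and 4.27% of all genes.

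Genes were called lower along the whole list. In ranks 1 to 50 of the list, 46 genes were called lower (median log2 fold change -1.24), and in ranks 151 to 200 it was 45 (median -1.04). Among the 50 genes with the most counts 43 were called lower (median -1.11), and among the 50 with the fewest 49 (median -1.31). Within the mutants, replicate 3 held the lowest normalised value for 143 of the genes, replicate 4 for 47 and replicate 1 for 10. The median log2 ratio to the WH mean was -1.01, -1.33 and -1.15 in mutant replicates 1, 3 and 4. The median coefficient of variation of a gene was 13.3% among the WH and 16.9% among the mutant libraries.

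**Figure D3:**
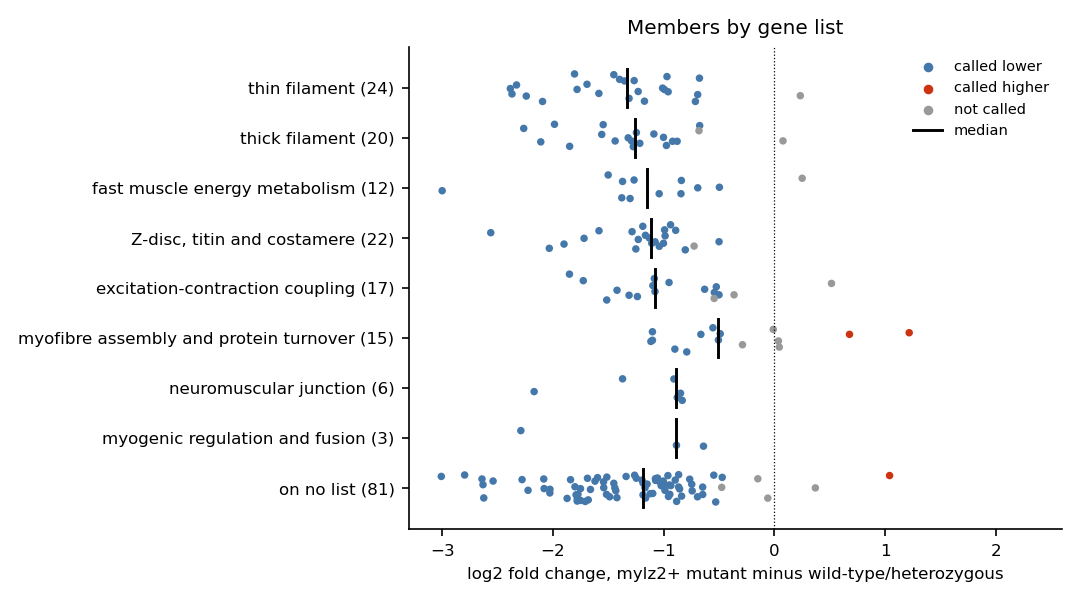
Log2 fold change between mylz2+ mutant and WH libraries for each of the 200 mylz2-specific genes (points), by gene list with its number of genes, coloured by the edgeR call and with the median of each list as a black line. Medians lie between -1.33 and -0.88 except for fibre assembly and protein turnover at -0.50, which holds 2 of the 3 genes called higher.

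Of 20 genes on the thick filament list, 18 were lower in mutants, with a median log2 fold change of -1.26. The fast myosin heavy chain gene myhb had normalised CPM of 13640, 11110, 12030 and 15380 in WH and 4038, 2338 and 3498 in mutant libraries. Every mutant library was far below the lowest WH library, and the mean difference was 3.96-fold (log2 fold change -1.99, SE 0.21, adjusted p = 0.000132, edgeR). The fast heavy chain gene myhz2, which took the most counts of the myosin genes, was at 25710, 25030, 24110 and 24020 in WH and 14890, 9916 and 12930 in mutants, 1.97-fold lower (adjusted p = 0.00138, edgeR). The heavy chain gene myhz1.1l, on none of the lists, fell from 5784 to 6908 in WH to 666.2 to 1509 in mutants (log2 fold change -2.54, SE 0.25, adjusted p = 0.000106, edgeR). The slow heavy chain neighbours smyhc1 and smyhc2 fell by 1.25 and 1.44 on the log2 scale. smyhc2 was at 2402, 2709, 2396 and 3238 in WH and 1167, 858.0 and 950.5 in mutants, with no overlap. Among light chains, myl13 fell by 2.26 and myl10 by 1.27, and the myosin binding protein genes MYBPC3, mybpc2b and MYBPC1 fell by 2.11, 1.85 and 1.56 on the log2 scale. The 2 thick filament genes with no call were myhz1.3 and a MYL1 copy. Of all 30 identifiers on the thick filament list that were tested, members or not, 26 were lower and 0 higher.

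Thin filament genes fell to a like degree, 23 of 24 being lower with a median log2 fold change of -1.33. The skeletal actin gene ACTA1 (ENSDARG00000036371) was at 8815, 10240, 7878 and 11120 normalised CPM in WH and 2295, 1499 and 2243 in mutants. Its mutant libraries were far below every WH library (4.73-fold lower, log2 fold change -2.24, SE 0.19, adjusted p = 5.99e-05, edgeR). The actin gene actc1b, the largest single source of counts, was at 106200, 118900, 101400 and 96490 in WH and 56410, 50950 and 88990 in mutants. Mutant replicate 4 lay near the lowest WH library, and the 1.62-fold fall just passed the test (log2 fold change -0.69, SE 0.20, adjusted p = 0.0333, edgeR). That call was lost when mutant replicate 1 or 3 or any WH library was left out (adjusted p = 0.0614 to 0.110) and on library totals (adjusted p = 0.0949), and was kept without mutant replicate 4 (adjusted p = 0.00146). actc1a fell 1.99-fold (adjusted p = 0.00152, edgeR) and the tropomyosin gene TPM2 2.64-fold (adjusted p = 0.00013, edgeR). The slow troponin I genes tnni1c and tnni1d were among the largest falls, at -2.38 and -2.37 on the log2 scale, and slow troponin C TNNC1 and slow troponin T TNNT1 fell by 1.45 and 1.80. NEB, the giant protein that runs along the thin filament, fell by 1.23 on the log2 scale. Over the whole thin filament list, 31 of 40 identifiers tested were lower and 0 higher.

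Slow and fast fibre markers were looked at as separate lists. The 200 genes held 7 of the 9 identifiers of the slow skeletal muscle list, and all 7 were called lower, with log2 fold changes of -2.38 to -1.25 and a median of -1.56. Over all 9, each was called lower, with a range of -2.38 to -0.84 and a median of -1.45. The slow list also names the regulators prox1a and sox6. Of the 9, 1 was called lower in mylz2+ than in sox10+ mutant libraries (log2 fold change -1.44), so not every identifier is particular to muscle. The 200 held 10 of the 17 identifiers of the fast list, of which 8 were called lower, with a median of -0.97, and a TNNI2 copy and pvalb2 were not called. Over all 17, only 9 were called lower, 8 were not called and the median was -0.77. The 17 identifiers came from 12 symbols, 1 of which matched all 4 TNNI2 copies. Other fast fibre genes were not on the fast list. Among them, myhb and pvalb4 fell further than its median and pvalb3 was not called. The difference between the 2 lists was not tested, and it depends on which genes stand for each fibre type.

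At the Z-disc and the membrane, 21 of 22 genes were lower, with a median log2 fold change of -1.12. myoz3a, a calsarcin that binds α-actinin at the Z-disc, had the largest fall there, from 313.2, 335.5, 283.3 and 266.0 normalised CPM in WH to 64.2, 39.3 and 48.6 in mutants (5.91-fold lower, adjusted p = 3.27e-05, edgeR). The lowest WH library was above 4 times the highest mutant library. The fast α-actinin gene actn3b fell 2.38-fold, and the titin cap gene tcap fell from 1238 to 1636 in WH to 513.6 to 642.2 in mutants (2.44-fold lower, adjusted p = 0.000178, edgeR). The titin copies TTN (ENSDARG00000000563 and ENSDARG00000028213) fell by 1.13 and 0.99 on the log2 scale. The intermediate filament gene DES fell least of those called, by 0.50 on the log2 scale (adjusted p = 0.0309, edgeR). actn3a was not called (log2 fold change -0.72, adjusted p = 0.0619, edgeR). It was called without mutant replicate 4, the mutant library where it was highest (log2 fold change -1.18, adjusted p = 0.000835, edgeR). Over the whole list, 40 of 49 identifiers tested were lower and 1 higher.

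Genes of calcium release and calcium handling in the fibre were lower in 14 of 17 cases, with a median log2 fold change of -1.08. Besides release, the list covers calcium pumps and buffers, the parvalbumin genes pvalb2, pvalb3 and pvalb4 among them. Of these, pvalb2 and pvalb3 were not called. RYR1, the calcium release channel of the sarcoplasmic reticulum, was at 1016, 1321, 935.2 and 1105 normalised CPM in WH and 485.6, 386.4 and 276.9 in mutants (2.86-fold lower, adjusted p = 0.00047, edgeR). Its voltage sensor CACNA1S fell 3.31-fold and the coupling protein STAC3 by 1.31 on the log2 scale. atp2a1l, a calcium pump gene of the sarcoplasmic reticulum, fell less, from 2556 to 2848 in WH to 1633 to 2113 in mutants (log2 fold change -0.54, SE 0.12, adjusted p = 0.0106, edgeR). On library totals its fall was -0.16 and was not called. The calcium buffer CASQ2 fell 2.36-fold, while the CASQ1 copies differed, with one 2.14-fold lower (ENSDARG00000038716, adjusted p = 0.00138, edgeR) and the other not called (ENSDARG00000018105, log2 fold change -0.36, adjusted p = 0.0647, edgeR). Over the whole list, 28 of 40 identifiers tested were lower and 0 higher.

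All 6 neuromuscular junction genes were lower. These were 5 subunits of the muscle acetylcholine receptor and RAPSN, the scaffold that clusters the receptor. CHRNG, which encodes the γ subunit of the embryonic receptor, was at 75.7, 69.7, 79.0 and 95.3 normalised CPM in WH and 19.2, 13.3 and 20.9 in mutants (4.50-fold lower, log2 fold change -2.17, SE 0.19, adjusted p = 5.48e-05, edgeR). CHRNE, which encodes the ε subunit that takes its place in mature mammalian muscle, was at 337.8 to 433.1 and 194.3 to 248.1 (1.78-fold lower, adjusted p = 0.00142, edgeR). CHRND fell 2.59-fold, and CHRNA1, CHRNB1 and RAPSN fell 1.88-, 1.84- and 1.80-fold. For every one of the 6, the lowest WH library was above the highest mutant library. Over the whole list, 13 of 14 identifiers tested were lower and 0 higher.

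Energy metabolism held 11 genes that fell and 1 that was not called, with a median log2 fold change of -1.15. The largest fall was that of HHATL, which has 2 copies on this list although it is named for its likeness to hedgehog acyltransferase and is no enzyme of energy supply. The copy ENSDARG00000005139 fell from 302.4, 339.0, 273.1 and 330.2 normalised CPM in WH to 44.2, 27.6 and 44.8 in mutants, which at 8.01-fold was among the largest falls of all 200 (log2 fold change -3.00, SE 0.19, adjusted p = 3.27e-05, edgeR). Without the HHATL copies, 9 of 10 genes were lower, with a median of -1.15. The glycolytic genes ALDOA and PKM fell 2.41- and 2.83-fold, and both PFKM copies fell, by 1.38 and 1.37 on the log2 scale. The creatine kinase gene ckmb was at 18930, 20510, 17520 and 17510 in WH and 8932, 8063 and 14140 in mutants (1.79-fold lower, adjusted p = 0.011, edgeR), and CKMT2, its mitochondrial partner, fell 2.06-fold. GAPDH was barely called (log2 fold change -0.50, adjusted p = 0.0468, edgeR), and the call was lost when any library other than mutant replicate 4 was left out (adjusted p = 0.0573 to 0.136) and on library totals (adjusted p = 0.469). PYGM, the muscle glycogen phosphorylase gene, had no call, with 289.5 to 314.6 in WH and 302.7 to 416.6 in mutants (log2 fold change 0.25, adjusted p = 0.186, edgeR). Over the whole list, 28 of 44 identifiers tested were lower and 3 higher.

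Genes of fibre assembly and protein turnover were divided, with 9 genes lower, 2 higher and 4 not called among 15, and a median log2 fold change of -0.50. hsp90aa1.1 encodes the muscle Hsp90 that folds myosin. It was at 5658, 6421, 7019 and 6403 normalised CPM in WH and 13450, 15370 and 15690 in mutants, and all 3 mutant libraries were above every WH library (2.33-fold higher, log2 fold change 1.22, SE 0.13, adjusted p = 0.000131, edgeR). UNC45B, its co-chaperone for myosin, was at 611.4, 741.7, 713.8 and 818.2 in WH and 1128, 1135 and 1202 in mutants (1.60-fold higher, log2 fold change 0.68, SE 0.12, adjusted p = 0.00254, edgeR). hspa1b, an inducible Hsp70 gene on none of the lists, rose from 2263, 2910, 2704 and 2680 to 5365, 5529 and 5408 (2.06-fold higher, log2 fold change 1.04, SE 0.12, adjusted p = 0.000228, edgeR). These 3 calls held in every fit that left out 1 library and with library totals, where the log2 fold changes of hsp90aa1.1, UNC45B and hspa1b were 1.62, 1.08 and 1.45.

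**Figure D4:**
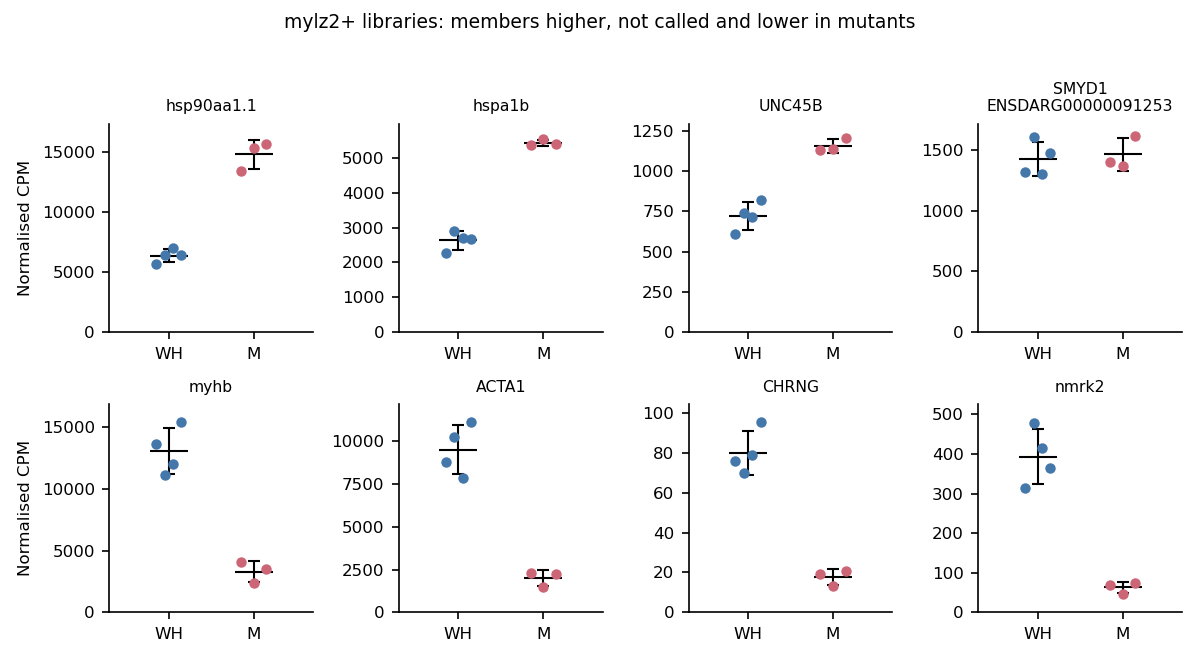
Normalised CPM in each mylz2+ library for 8 of the 200 genes, WH (n = 4) and mutant (M, n = 3), with points for libraries, wide bars for means and error bars for the SD, on axes from 0. hsp90aa1.1, hspa1b and UNC45B are higher in every mutant library, SMYD1 (ENSDARG00000091253) overlaps, and myhb, ACTA1, CHRNG and nmrk2 are lower in every mutant library.

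Smyd1, which methylates proteins and binds myosin, has 2 copies on the list. One copy (ENSDARG00000091253) was at 1316, 1606, 1307 and 1480 normalised CPM in WH and 1406, 1371 and 1619 in mutants, with overlapping ranges (log2 fold change 0.04, SE 0.12, adjusted p = 0.881, edgeR), while the other (ENSDARG00000009280) was lower at 289.4 to 367.6 and 120.9 to 236.5 (log2 fold change -0.90, adjusted p = 0.0101, edgeR). Among muscle ubiquitin ligases and their adaptors, trim63a and trim63b (MuRF1) fell 1.58- and 2.14-fold, the former with no call on library totals (adjusted p = 0.113), TRIM55 (MuRF2) 1.73-fold, KLHL40 2.17-fold and KLHL41 1.42-fold. trim55a was at 186.0 to 210.2 in WH and 188.8 to 204.3 in mutants (log2 fold change -0.01, adjusted p = 0.967, edgeR). The deubiquitinase gene USP28 was at 360.1 to 377.6 and 367.6 to 400.7 (log2 fold change 0.05, adjusted p = 0.81, edgeR), and USP13, another deubiquitinase gene, fell by 0.49 on the log2 scale. On none of the lists, the small heat shock gene hspb9l was at 859.5 to 1253 and 946.1 to 1074 (log2 fold change -0.06, adjusted p = 0.833, edgeR), and ptges3l, related to the Hsp90 co-chaperone p23, at 217.8 to 402.6 and 385.5 to 423.0 (log2 fold change 0.37, adjusted p = 0.179, edgeR). On library totals, hspb9l, trim55a, SMYD1 (ENSDARG00000091253), USP28, PYGM, ptges3l and pvalb2 were also called higher. Over the whole assembly and turnover list, 30 of 44 identifiers tested were lower and 5 higher. That whole list includes the 2 TNNT3 copies, both called lower, which were counted with the thin filament and not among the 15 genes above.

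Of the myogenic regulation and fusion list, 3 genes were among the 200, and all fell. This count was taken after the rule had left out 8 identifiers, 7 of which passed both limits. It therefore does not show how many genes of the list are specific to muscle. MUSTN1, which encodes a nuclear protein of the musculoskeletal system, went from 228.0, 366.3, 322.5 and 315.4 normalised CPM in WH to 62.0, 51.5 and 75.5 in mutants (4.89-fold lower, adjusted p = 4.87e-05, edgeR). The splicing factor gene rbfox1l fell 1.85-fold (adjusted p = 0.00133, edgeR). The cadherin gene CDH15, expressed in myoblasts, fell 1.56-fold (adjusted p = 0.0139, edgeR), which was not called without mutant replicate 3 (adjusted p = 0.053) or with library totals (adjusted p = 0.367). Over the whole list, 24 of 37 identifiers tested were lower and 1 higher.

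Among the 81 genes on no list, 76 were lower, 1 was higher and 4 were not called, with a median log2 fold change of -1.19. The lists did not hold every filament gene. The MYH6 and MYL2 copies, acte1 and myhz1.1l are among the 81, so these are not all genes outside the sarcomere. The largest fall of all 200 was that of ENSDARG00000111386, from 79.0, 65.7, 112.3 and 69.3 normalised CPM in WH to 15.7, 5.47 and 9.29 in mutants (8.05-fold lower, SE 0.35 on the log2 scale, adjusted p = 0.000236, edgeR). ENSDARG00000112287 fell 6.96-fold and ENSDARG00000098747 6.24-fold, and neither has a symbol in the table. nmrk2, a nicotinamide riboside kinase gene of muscle, was at 315.2, 479.0, 413.7 and 364.7 in WH and 68.6, 47.2 and 74.4 in mutants (6.20-fold lower, adjusted p = 3.69e-05, edgeR). ADIPOQ, a match to the adiponectin gene by symbol, fell 6.17-fold. Other falls on no list were the caveolin genes cav4a and cav4b (-1.60 and -1.66 on the log2 scale), the transcriptional cofactor gene vgll2b (-1.25) and FHL1 (-2.08), which encodes a LIM domain protein of muscle.

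Copies of a gene did not always move together. The 4 genes under the symbol TNNI2, fast troponin I, had log2 fold changes of -2.33, -1.35, -1.01 and 0.24. ENSDARG00000045592 was at 794.0, 1275, 1084 and 1035 normalised CPM in WH and 222.7, 127.0 and 275.4 in mutants (adjusted p = 0.000202, edgeR), whereas ENSDARG00000029069 was at 1261, 786.9, 748.7 and 671.4 in WH and 554.8, 524.9 and 1982 in mutants (adjusted p = 0.782, edgeR). Its value in mutant replicate 4 was above every WH library and those in the other 2 mutants were below. The HHATL copies fell by 3.00 and 0.84 on the log2 scale. The parvalbumins, calcium buffers of fast fibres, were split as well. pvalb4 was at 2066, 3319, 2784 and 2208 in WH and 720.6, 575.2 and 861.2 in mutants (3.61-fold lower, adjusted p = 0.000179, edgeR), and pvalb7 fell 3.44-fold. pvalb2 was at 2282, 3225, 2507 and 1971 in WH and 2502, 2537 and 5678 in mutants (log2 fold change 0.52, SE 0.29, adjusted p = 0.248, edgeR). The gene next to it, pvalb3, was at 1385, 1323, 601.7 and 846.7 in WH and 488.7, 462.9 and 1188 in mutants (log2 fold change -0.54, adjusted p = 0.363, edgeR). Counting may have divided reads between near-identical copies, so values of single copies are uncertain.

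**Figure D5:**
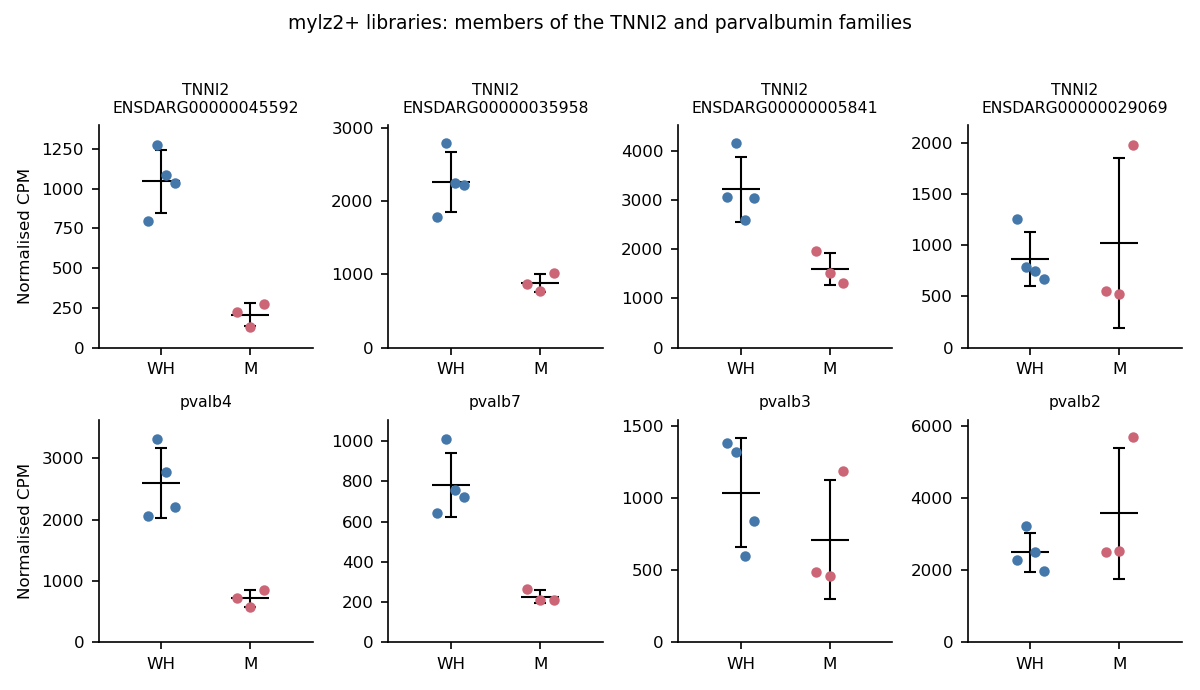
Normalised CPM in each mylz2+ library for the 4 genes under the symbol TNNI2 and for 4 parvalbumin genes, WH (n = 4) and mutant (M, n = 3), with points for libraries, wide bars for means and error bars for the SD, on axes from 0. Mutant replicate 4 is the highest point of TNNI2 ENSDARG00000029069 (1982) and pvalb2 (5678), while TNNI2 ENSDARG00000045592, pvalb4 and pvalb7 are lower in all 3 mutant libraries.

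Some of the genes stood apart in a single mutant library. In mutant replicate 4, 14 of the 200 genes were above 1.5 times both other mutant libraries, against 6 such genes for replicate 1 and 0 for replicate 3. The share of all genes past this limit was not counted, so these counts cannot be read as particular to the 200. The 14 included actc1b, ckmb, myhz1.1, myhz1.3, myl13, TMOD4, actn3a, a MYL1 copy (ENSDARG00000017441) and a TNNI2 copy (ENSDARG00000029069), the parvalbumin genes pvalb2 and pvalb3, the actin gene acte1 and the adenine nucleotide carrier gene SLC25A4. These genes were picked for high values in mutant replicate 4, so leaving it out favours lower fold changes. Without mutant replicate 4, 11 of the 14 were called lower by edgeR. Of the 11, MYL1 (log2 fold change -1.06, adjusted p = 0.00144), pvalb3 (-1.15, adjusted p = 0.0348) and actn3a had no call with it. The rest of the 11 were called lower with it as well. The log2 fold changes of myhz1.3, pvalb2 and TNNI2 ENSDARG00000029069 were -0.46, -0.00 and -0.71 without it, and none was called. myhz1.1 was at 16080, 11390, 11040 and 9987 in WH and 4982, 3407 and 8723 in mutants (log2 fold change -1.09, adjusted p = 0.0234, edgeR), a call lost without mutant replicate 1 or 3 or WH replicate 1 (adjusted p = 0.060 to 0.087) and on library totals (adjusted p = 0.0555).

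Markers of other cell types were present in the mylz2+ libraries and partly moved with genotype. Summed over each list, epidermal markers were at 2427 to 4593 CPM in WH and 4429 to 5740 CPM in mutants, with 0 of 8 called, and chondrocyte markers at 252.9 to 757.4 and 504.3 to 835.3 CPM, with 0 of 14 tested called. Macrophage and neutrophil markers were at 5.37 to 16.6 and 14.5 to 44.3 CPM, with 1 of 5 tested called higher, while photoreceptor and lens markers were at 50.5 to 425.9 and 28.7 to 79.9 CPM, with 2 of 7 called lower. The sums of all these lists overlapped between genotypes. So did those for neural crest and pigment, glia, neuron, erythrocyte, endothelium, connective tissue and smooth muscle markers. Of single genes on these lists, the neuronal gene nefma was called higher (log2 fold change 3.62, adjusted p = 0.000731, edgeR), and a STMN1 copy (ENSDARG00000004169, log2 fold change -0.80, adjusted p = 0.0304) and the tendon gene TNMD (log2 fold change -2.17, adjusted p = 0.045) were called lower. The cardiac list, 3 genes of which are among the 200, was at 1758 to 2257 and 1299 to 1512 CPM, with 5 of 7 tested called lower. Most of this sum came from myl4, which is among the 200, with mean normalised CPM of 1843 in WH and 946.5 in mutants. The cardiac sum is therefore not independent of the 200 genes and is no measure of heart cells in the sort. The part of other cell types in the fall of the 200 genes was not tested.

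In sox10+ cells the same genes were scarce. They made up 0.339%, 0.0903%, 0.0989% and 0.134% of the counts in WH replicates 1 to 4 and 0.0665%, 0.157% and 0.0491% in mutant replicates 1, 3 and 4, and the genotypes overlapped. WH replicate 1 held the highest value of 109 of the genes. Of 169 genes that passed the filter on low counts, 4 were called lower (1.59% of all genes tested) and 2 higher (2.1% of all genes), where 3.69% of all genes were called in either direction. DESeq2 called 18 lower and 4 higher, beside 6.19% and 5.13% of the genes to which it gave an adjusted p. The rule picked genes for low values in the sox10+ WH libraries, which favours higher values in sox10+ mutants. The median log2 CPM ratio of mutant to WH means over the 169, with means held at the floor of 3 counts per group, was -0.87, beside 0.12 for all genes tested, and without WH replicate 1 it was -0.32. The 4 called lower were myhb, myhz1.1l, pvalb7 and ENSDARG00000112287. myhb was at 179.8, 38.1, 32.1 and 46.0 normalised CPM in WH and 1.24, 2.47 and 3.09 in mutants (log2 fold change -5.03, SE 0.74, adjusted p = 0.0062, edgeR). The call for pvalb7 (adjusted p = 0.0487, edgeR) was lost when any library was left out (adjusted p = 0.0525 to 0.168).

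The 2 genes called higher in sox10+ mutants were MLF1 and UNC45B. MLF1, named for a gene fused in myeloid leukaemia, was at 3.81, 1.86, 3.53 and 2.13 normalised CPM in WH and 19.7, 19.4 and 22.2 in mutants, with no overlap (log2 fold change 2.85, SE 0.37, adjusted p = 0.00311, edgeR). In mylz2+ cells MLF1 fell by 0.55 on the log2 scale (adjusted p = 0.0136, edgeR), a call lost on library totals. UNC45B was at 11.2, 6.73, 3.32 and 7.03 in WH and 32.9, 16.7 and 25.7 in mutants, with no overlap (log2 fold change 1.83, SE 0.42, adjusted p = 0.0445, edgeR), but 6 of the 7 fits that left out a library did not call it (adjusted p = 0.0604 to 0.188). hspa1b was at 3.37, 2.79, 4.79 and 0.0 in WH and 22.4, 14.5 and 28.8 in mutants (log2 fold change 3.00, SE 1.06, adjusted p = 0.174, edgeR), with no overlap and no call. hsp90aa1.1 was at 15.6 to 52.5 and 38.2 to 112.0, which overlapped (adjusted p = 0.223, edgeR).

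A test of whether the genotype difference itself differed between the cell types, over all 14 libraries, called 5 of the 200 genes (1.53% of all genes in either direction). The WH libraries that chose the genes enter this test, and 31 of the 200 had sox10+ counts below the filter of the sox10+ fit. The difference of mylz2+ minus sox10+ effects was called below 0 for MLF1, FITM1 and MYBPC1 (1.02% of all 23232 genes tested) and above 0 for ENSDARG00000112287 and DHRS7C (0.508% of all genes). For MLF1 it was -3.42 on the log2 scale (SE 0.31, adjusted p = 0.000311, edgeR). FITM1, which encodes a protein of lipid droplet formation, was at 0.0, 0.0, 0.103 and 0.0 normalised CPM in sox10+ WH and 1.58, 2.34 and 0.359 in sox10+ mutant libraries, so its difference rested on very low counts. For hsp90aa1.1 the effects of genotype in the cell types differed by 0.0049 on the log2 scale (SE 0.53, adjusted p = 0.9999, edgeR).

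The separation of the cell types was also present in the mutants, whose libraries the rule did not use. All 200 genes were called higher in mylz2+ than in sox10+ mutant libraries (edgeR), beside 19.8% of all 21221 genes tested higher and 39% called in either direction. Among mutants the log2 ratio with 1 CPM added ran from 3.23 to 10.15 with a median of 6.52, and all 200 were above the limit of 3. It was lower than in the WH libraries for 136 genes and higher for 64, where a lower value is favoured by the choice of the highest WH ratios. The chaperone gene hsp90aa1.1 had ratios of 7.64 in WH and 7.91 in mutants, USP28 7.40 and 3.46, and HHATL (ENSDARG00000005139) 6.85 and 4.76. In sox10+ libraries USP28 was at 4.14 normalised CPM in WH replicate 1 and 0.0 in the other WH libraries, and at 26.9, 24.3 and 63.3 in mutants (adjusted p = 0.137, edgeR). The sox10+ mutant libraries had 0 counts for 19 of the genes in all 3 replicates, and the sox10+ WH libraries for 5 in all 4.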

How the data were processed

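RNA of sorted cells was amplified with SMART-Seq HT and made into Nextera XT libraries. The deposited values are whole-number read counts per Ensembl gene, made by the authors from reads aligned with STAR to GRCz11; DESeq2 is also named in the submitters' processing notes, and versions are not given in the sources used here. Every column matched the label of 1 sample, and 0 columns were left unmapped. Titles call the samples biological replicates and say nothing more of separate clutches. The paper states that siblings matched by clutch were used, without saying which of these samples shared a clutch. The p-values therefore measure the spread between these samples, which may be partly technical.

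Members were chosen from CPM (count over library total), and members and gene lists were chosen with earlier results of these data known. Counts were tested with edgeR 4.0.16 in R 4.3.3 (filterByExpr, TMM, robust quasi-likelihood fit, Benjamini-Hochberg adjustment over all genes tested, threshold 0.05), separately for mylz2+ cells, sox10+ cells, the mutants of both, and for the interaction over 14 libraries. Standard errors (SE) were derived from the quasi-likelihood F statistic, as the absolute log2 fold change over the square root of F. DESeq2 1.42.0, other scalings, no filter, a threshold of 0.01, lists of 100 and 400 genes, a pseudocount of 5 CPM, replicate blocks and leaving out each library were the alternatives, and leaving sox10+ WH replicate 1 out of the choice was added after seeing the data. The edgeR and DESeq2 fits were also run on simulated counts with as many genes raised as lowered. Those counts do not show how TMM handles the shift of scaling seen in muscle. Tables and plots were made with Python 3.11.15, pandas 2.3.3, numpy 2.4.6 and matplotlib 3.10.9.

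Depth ran from 54824619 to 103563447 counts per library, and floors cover counting error only. Genes were named by rule: the 10 with the highest ratio, the 10 with the most counts, up to 12 called falls and 12 called rises with the largest change and no overlap, examples of each list with the most counts first, those next to the end of the list, and psmb1. Other named genes, namely those not called, copies under 1 symbol, those called in sox10+ cells or by the interaction and some examples of lists, were chosen after their values were seen. Lists were matched by zebrafish symbol or, failing that, by the capitalised symbol, a choice also made after the data were seen, so 1 list entry can match several identifiers. A planned motif search of promoters was not run, and no sequences were used here.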

Additional observations from a re-analysis of the deposited data

Results flagged for a closer look

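In 55 tests in a group of 4 libraries, 53 of single genes and 2 of the share of counts, 4 genes had 1 mylz2+ WH library apart from the other 3, beyond the 95% critical value of Dixon's gap test, which chance passes in about 5% of groups. smyhc2 was high in WH replicate 4, at 2932 CPM, and CDH15 was high in the same library, at 154.8 CPM. ENSDARG00000098747 was high in WH replicate 1, at 83.84 CPM, and MUSTN1 was low in WH replicate 1, at 210.1 CPM. The tests used plain CPM and were not run on normalised CPM. In the normalised values given above, the gaps of smyhc2 and MUSTN1 were smaller beside their ranges.

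The interaction test of edgeR called 5 of the 200 genes, beside 1.53% of all genes. All 5 were called in every one of the 14 fits that left out a library. Those fits share most libraries, among them the WH libraries that chose the genes, so they are no independent support. The mylz2+ effect minus the sox10+ effect was -3.419 for MLF1 (adjusted p = 0.000311), -6.778 for FITM1 (adjusted p = 0.00435) and -1.264 for MYBPC1 (adjusted p = 0.0127) on the log2 scale. It was 4.575 for DHRS7C (adjusted p = 0.00755) and 5.232 for ENSDARG00000112287 (adjusted p = 0.0115). In sox10+ libraries DHRS7C was at 0.350 to 1.13 normalised CPM in WH and at most 0.0435 in mutants, and ENSDARG00000112287 at 9.01 to 20.8 and at most 0.155, so the sizes of these differences rest on counts near the floor. The difference of FITM1 also rested on very low sox10+ counts, as given above.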

How the results depend on the processing

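Of the 200 genes, 90.5% were lower in mylz2+ mutants, and the other settings gave 75.5% (library totals) to 92.5% (DESeq2), apart from the fits against a single held-out WH library, which gave 54.5%, 69.5%, 43.0% and 71.0% for replicates 1 to 4. Higher calls went from 1.5% to 5% with library totals. Over all 20413 genes, library totals gave 1122 called lower and 4352 higher, beside 2385 and 2202 with TMM. So higher calls rose over all genes as well. DESeq2 called 14.8% lower and 13.3% higher of all genes to which it gave an adjusted p. Leaving out 1 library gave 84.0% to 92.0% lower and 1.5% to 2.0% higher. In sox10+ cells, calls lower went from 2.00% to 9% with DESeq2 (6.19% of all genes) and calls higher from 1.00% to 2.00% (5.13%). Percentages of the list divide by all 200 genes, tested or not, while those of all genes divide by genes tested. Of the 169 listed genes that edgeR tested in sox10+ cells, 2.37% were called lower and 1.18% higher. Calls higher were 0.50% at an adjusted p under 0.01, 0.00% among 100 genes and 1.75% among 400, and leaving out 1 library gave 1.5% to 3.0% lower and 0.5% to 1.5% higher. The interaction called 5.50% below 0 and 5% above 0 with DESeq2 (3.5% and 2.43% of all genes), 6% and 0.50% among 400 genes, 0.00% above 0 among 100 genes and 0.50% above 0 at an adjusted p under 0.01. Leaving out 1 library gave 1.5% to 4.0% below and 1.0% to 4.0% above 0. Between the mutants of both cell types, leaving out 1 library gave 91.5% to 100% higher. Same-numbered samples did not deviate together over all genes (correlations -0.0419 to 0.0575). With so few samples this cannot exclude that some of them shared a clutch. A replicate block gave 89.0% lower in mylz2+ cells by title number and 84.0% by description number, 1.00% lower and 0.00% higher in sox10+ cells, and 92.0% higher between the mutants. Among 53 named genes and 13 settings, 644 of 689 values kept direction and side of the threshold, 33 lost and 5 gained a call, and 7 changed sign. All 7 belong to genes with no call. hspb9l was at 0.346 with library totals, 0.0508 with the title block, and -0.137 to 0.0489 when 1 library was left out. pvalb2 ran from -0.00374 to 0.702, and SMYD1 (ENSDARG00000091253) from -0.0574 to 0.0987, when 1 library was left out, and the latter was at -0.00136 with the description block. The causes were not tested. Counts near the floor limit what the sox10+ libraries can show.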
